A study of Mus musculus with 6 samples.

Results

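The expression of 10 genes of the 2-cell-like state was examined in mouse embryonic stem cells (mESCs) with and without PATZ1, a zinc finger protein with a role in chromatin insulation. The genes, called members here, were *Zscan4a*, *Zscan4c*, *Zscan4d*, *Zscan4f*, *Zfp352*, *Tcstv1*, *Tcstv3*, *Gm20767*, *Gm4340* and *Dux*, taken by symbol from the 23420 symbols counted in each library. RNA was sequenced from E14 mESCs kept in LIF with a MEK and a GSK3 inhibitor, 3 libraries of WT cells and 3 of *Patz1* knockout (KO) cells. The KO cells were made from the WT line with CRISPR/Cas9 and isolated as single clones, and how many clones the 3 KO libraries came from is not given in the sources used here. The study describes the libraries of a genotype as biological replicates, and the labels do not say whether these were separate cultures, so p-values measure the spread between these libraries.

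A few cells in an mESC culture pass at any time through a transient state that resembles the 2-cell embryo, the stage at which the mouse genome becomes active. The transcription factor DUX can start this state, and genes of the *Zscan4* and *Tcstv* families, together with *Zfp352*, are transcribed in it and are otherwise nearly silent in mESCs. ZSCAN4 proteins are known for a part in telomere maintenance, and many genes of the state lie in clusters of recently copied, near-identical sequence.

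The counts summed to between 37573923 and 47721070 in replicates 1 and 2, and to 11040756 (WT) and 11420268 (KO) in replicate 3, which was also richer in ribosomal precursor RNA (14.4% and 12.5% of counts, against 1.79% to 3.03%). A level of 3 counts, taken as the floor of detection, was between 1.69 and 2.12 normalized counts in replicates 1 and 2 and 8.21 (WT) and 7.93 (KO) in replicate 3. Such floors cover counting error only. *Patz1* itself was lower in each KO library, with 853 to 862 normalized counts in KO and 1838 to 1983 in WT. The summed level of 8 mESC markers was between 118655 and 126590 normalized counts in WT and between 137385 and 140121 in KO, and 1 of the 8 passed the test described below (*Dppa5a*, higher in KO). There were 8 markers each of fibroblast feeders, primitive endoderm, trophoblast and primed epiblast or early mesoderm, of which 5, 7, 6 and 5 had an adjusted p-value. Of these, 3 were higher in KO (*Thy1*, *Dab2* and *Otx2*) and 1 was lower (*Cdx2*), where 2.7% of all genes tested were higher and 4.78% lower, and the feeder genes *Col3a1* and *Postn* had at most 3 counts in any library. Their summed levels in WT and KO were 419 to 466 and 492 to 574 normalized counts for feeders, 142 to 192 and 179 to 225 for primitive endoderm, 1067 to 1194 and 947 to 1155 for trophoblast, and 2315 to 2997 and 2452 to 3060 for epiblast and mesoderm. The part of these differences in the results below was not tested.

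The *Zscan4* copies encode proteins with a SCAN domain and zinc fingers and lie together on chromosome 7 (GRCm38). *Zscan4c* extends from 11005745 to 11010547 on the plus strand, *Zscan4d* from 11161374 to 11166159 on the minus strand and *Zscan4f* from 11397915 to 11402318 on the plus strand, each with 4 exons and annotated as protein coding. *Zscan4a*, from 10794242 to 10799057 on the minus strand, is annotated as an unprocessed pseudogene. Their longest annotated transcripts were between 95.3% and 97.8% identical to each other in local alignments. The likeness continues upstream of the gene. To show how little the copies differ there, 140 bases around the TATA box are printed. They are given for the 3 members with a RefSeq promoter (build GRCm38.p6) and for *Zscan4b*, a further copy. Relative to the RefSeq start, the last base lies at -25 in *Zscan4c*, -2 in *Zscan4f*, -36 in *Zscan4d* and -2 in *Zscan4b*. The bases from there to the start were not compared. The windows are chr7:11005581-11005720 (plus) for *Zscan4c*, chr7:11397774-11397913 (plus) for *Zscan4f*, chr7:11166184-11166323 (minus) for *Zscan4d* and chr7:10905052-10905191 (minus) for *Zscan4b*. Capitals mark the TATA box in *Zscan4c*, and in the other copies the bases that differ from *Zscan4c*.
Zscan4c: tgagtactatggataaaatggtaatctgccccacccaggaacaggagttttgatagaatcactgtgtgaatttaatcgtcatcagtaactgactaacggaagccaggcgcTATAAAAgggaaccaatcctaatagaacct
Zscan4f: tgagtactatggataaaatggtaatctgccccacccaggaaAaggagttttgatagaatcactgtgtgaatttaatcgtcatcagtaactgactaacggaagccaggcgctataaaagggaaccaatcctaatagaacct
Zscan4d: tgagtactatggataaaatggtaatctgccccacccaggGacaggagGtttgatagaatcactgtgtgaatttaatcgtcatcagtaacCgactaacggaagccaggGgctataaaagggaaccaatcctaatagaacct
Zscan4b: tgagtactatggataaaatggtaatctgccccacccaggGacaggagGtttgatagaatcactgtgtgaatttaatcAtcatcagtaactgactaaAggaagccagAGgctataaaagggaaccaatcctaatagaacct

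*Zscan4f* differed from *Zscan4c* at 1 of these 140 positions, *Zscan4d* at 4 and *Zscan4b* at 6. The windows were cut around the letters TATAAAAG, so the TATA box is the same in the 4 copies by construction. The letters TATAAA, on either strand, stood once in the RefSeq promoter of each of these copies and in 13.6% of 32851 mouse promoters of 300 bases. The promoter of *Zfp352*, by contrast, held a tandem repeat. It is printed from chr4:90218570-90218829 (plus strand, GRCm38.p6), with the repeated unit in capitals, one of the most frequent words of 11 bases in this promoter.
Zfp352: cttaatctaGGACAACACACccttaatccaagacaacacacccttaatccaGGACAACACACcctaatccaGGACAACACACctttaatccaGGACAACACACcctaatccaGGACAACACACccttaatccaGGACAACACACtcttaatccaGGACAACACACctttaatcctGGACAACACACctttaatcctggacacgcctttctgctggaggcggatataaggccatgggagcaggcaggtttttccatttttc

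The unit occurred 8 times in the *Zfp352* promoter, with 20 to 42 bases from one start to the next, and on neither strand of any other promoter (1 of 32851 promoters, 0.003%). The letters TATAAA were not in this promoter. The letters GGGGNGGGG, a G-rich run of the kind known for PATZ1 in vitro, were found on neither strand in the promoters of *Zscan4b*, *Zscan4c*, *Zscan4d*, *Zscan4f*, *Zfp352* or *Gm4340*. They stood in 22.4% of all promoters. This says only that these letters are not in these 300-base windows.

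Copies this similar share the reads that fall on identical sequence. Over windows of 50 bases, 36.4% of the transcript of *Zscan4a*, 14.5% of *Zscan4c*, 50.4% of *Zscan4d* and 4.66% of *Zscan4f* was found in no other annotated gene. Such shares depend on the length of the window. Over windows of 100 bases they were 60.9%, 27.2%, 70.4% and 10.5%. How the authors counted a read that fits several copies is not given in the sources used here, so the level of a single copy is uncertain. The sum over *Zscan4a* to *Zscan4f* removes the choice of copy for a read assigned to 1 of these 6, but it too depends on whether shared reads were dropped or counted more than once, and on reads shared with *Zscan4-ps2*, a pseudogene outside the sum. That pseudogene holds 71.4% of the 50-base windows of *Zscan4c* and 84.7% of those of *Zscan4f*.

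*Zscan4* levels were lower in KO than in WT within each replicate number, and differed several-fold between libraries of 1 genotype. The sum of the 6 copies was 280, 1956 and 1183 normalized counts for WT replicates 1, 2 and 3, and 60.4, 291 and 264 for KO replicates 1, 2 and 3. The highest KO library, replicate 2, was thus just above the lowest WT library, replicate 1. KO held 21.5%, 14.9% and 22.3% of the WT sum in replicates 1, 2 and 3, and 18.0% between the means, or 28.1% when WT replicate 2 was left out. In bulk RNA, fewer cells in the 2-cell-like state and less RNA per such cell cannot be told apart.

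The single copies followed the sum. In the order of replicates 1 to 3, here and for the genes below, the normalized counts of *Zscan4a* were 62.9, 455 and 260 in WT and 15.2, 67.0 and 63.4 in KO. *Zscan4c* had 83.5, 573 and 350 in WT and 18.6, 101 and 74.0 in KO. In both, replicate 1 was the lowest library of each genotype and the WT value of that replicate lay inside the KO range. *Zscan4d* had 88.1, 538 and 359 normalized counts in WT and 16.4, 74.7 and 74.0 in KO, with no overlap between the genotypes. *Zscan4f* had 38.3, 339 and 167 in WT and 9.03, 43.3 and 39.6 in KO, so that WT replicate 1 fell below KO replicates 2 and 3. The split between copies moved little across the 6 libraries. *Zscan4a* took between 22.0% and 25.2% of the *Zscan4* counts, *Zscan4c* between 28.0% and 34.8%, *Zscan4d* between 25.7% and 31.4% and *Zscan4f* between 13.7% and 17.3%.

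None of the 4 *Zscan4* members passed the test on genotype alone, in DESeq2 or in edgeR, although each had an unadjusted p under 0.05, and each passed in DESeq2 once the replicate number was in the model. The test was the Wald test of DESeq2 on raw counts, two-sided, with p-values adjusted over all genes by Benjamini-Hochberg and a threshold of 0.05. For *Zscan4d* the log2 fold change (KO over WT) came to -2.59, with an SE of 0.91 and an adjusted p of 0.0568, and *Zscan4a*, *Zscan4c* and *Zscan4f* had -2.43, -2.38 and -2.58 with adjusted p-values of 0.0974, 0.115 and 0.0994. The labels do not state a pairing of libraries across genotypes, and pairing by replicate number was taken from correlations in these same libraries. With the replicate number as a block, the log2 fold change of *Zscan4d* was -2.58 with an SE of 0.22 (adjusted p 2.81e-29, DESeq2). The quasi-likelihood test of edgeR with the same block gave -2.64 and a much larger adjusted p of 3.08e-08. Under the block in DESeq2, *Zscan4a*, *Zscan4c* and *Zscan4f* had log2 fold changes of -2.36, -2.34 and -2.49. Their SE was 0.25, 0.21 and 0.30 with the block and 0.94, 0.95 and 1.00 without it. For comparison, 4.78% of all genes tested were lower in KO by genotype alone and 7.95% with the block. An unadjusted p under 0.05, in either direction, was found for 2630 of 15309 genes in DESeq2 by genotype alone and 3163 of 14995 in edgeR. By genotype alone, the 4 members passed when WT replicate 1 was left out (adjusted p between 0.00929 and 0.0319) and did not when any other library was. Without WT replicate 1, 2.36% of all genes were lower in KO. Leaving out WT replicate 2 gave log2 fold changes between -2.02 (*Zscan4d*) and -1.73 (*Zscan4a*), and the adjusted p-values of the 4 genes then lay between 0.383 and 0.545.

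**Figure D1:**
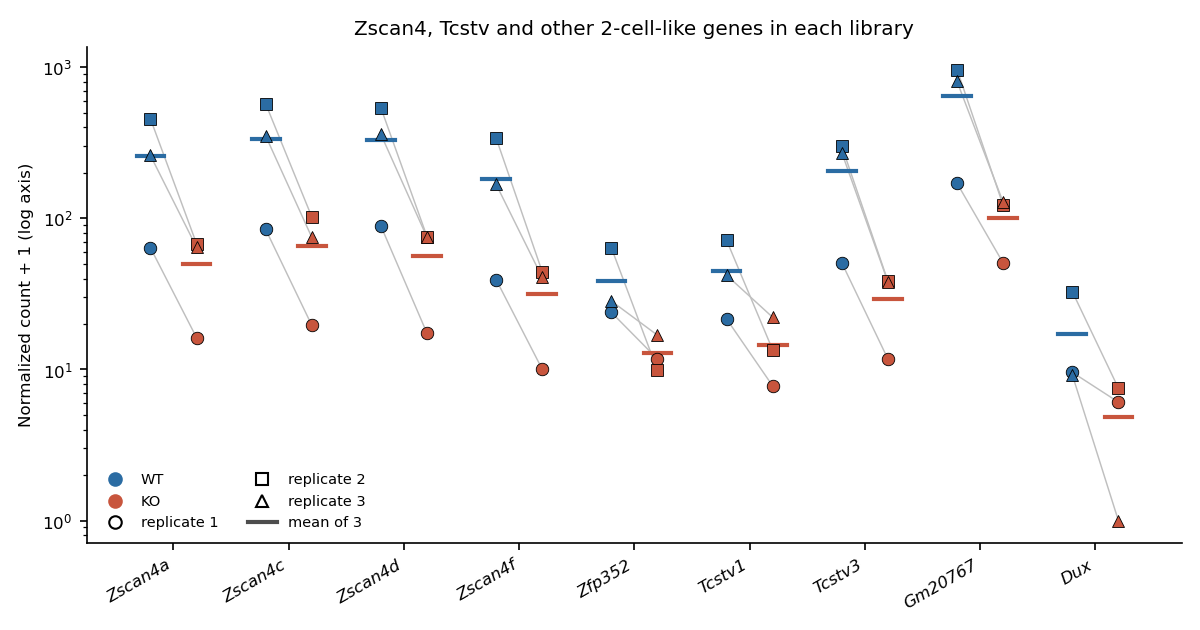
Normalized count plus 1 of 9 genes (x axis) in each library on a log axis, blue for WT and red for KO, with circles, squares and triangles for replicates 1, 2 and 3, bars for the mean of 3 libraries and gray lines joining libraries of the same replicate number. Each gray line falls from WT to KO, and WT replicate 2 is the highest point of every gene.

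The *Tcstv* genes, named for their expression at the 2-cell stage, and *Gm20767* lie on chromosome 13. *Tcstv1* extends from 119893388 to 119894785 (minus strand), *Tcstv3* from 120316878 to 120318178 (plus strand) and *Gm20767* from 120140246 to 120155335 (plus strand), all protein coding. *Gm20767* is a further copy of this family by sequence, with 93.3% identity to *Tcstv1* and 90.1% to *Tcstv3* over the aligned part of the transcripts, against 92.1% between *Tcstv1* and *Tcstv3*. More of the sequence of the *Tcstv* genes than of *Zscan4* was their own, with 83.2% of 50-base windows of *Tcstv1* and 68.6% of *Tcstv3* in no other gene. For *Gm20767* the share was 29.8% (56.1% over windows of 100 bases), and 60.8% of its 50-base windows were also in *Gm21761*.

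*Tcstv1* had 20.6, 70.6 and 41.1 normalized counts in WT and 6.77, 12.5 and 21.1 in KO. KO replicate 3 lay just above WT replicate 1, so the genotypes overlapped. *Tcstv3* had 49.8, 299 and 271 in WT and 10.7, 37.4 and 37.0 in KO. No KO library of *Tcstv3* reached the lowest WT library. Together the 2 genes had 70.3, 369 and 312 normalized counts in WT and 17.5, 49.8 and 58.1 in KO, and KO held 24.9%, 13.5% and 18.6% of WT within replicates 1, 2 and 3.

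*Tcstv1* was lower in KO by genotype alone, at -1.87 on the log2 scale (SE 0.55, DESeq2 adjusted p 0.0127), and with the block (-1.79, adjusted p 0.00431). *Gm20767* and *Tcstv3* also passed in both models. For *Tcstv3* the SE fell from 0.88 to 0.28 under the block (log2 fold change -2.74, adjusted p 3.47e-20), and for *Gm20767* from 0.78 to 0.36 (-2.49, adjusted p 4.78e-10). In edgeR with the block their adjusted p-values were larger, at 1.96e-07 and 1.48e-07. The 3 calls by genotype alone depended on single libraries. *Tcstv1* did not pass when WT replicate 2 (log2 fold change -1.26, adjusted p 0.424), KO replicate 1 (-1.49, adjusted p 0.228) or KO replicate 2 (-1.88, adjusted p 0.109) was left out. Of the fits that left out 1 library, *Tcstv3* passed only in the one without WT replicate 1, and *Gm20767* only in those without WT replicate 1 or KO replicate 3. Where they did not pass, the log2 fold changes lay between -3.16 and -2.47 for *Tcstv3* and between -2.89 and -2.30 for *Gm20767*, against -2.88 and -2.71 with all libraries.

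*Zfp352*, a zinc finger gene on chromosome 4 from 90218820 to 90225702 (plus strand, protein coding), shared little sequence with other genes, as 92.9% of its 50-base windows were its own. It had 22.9, 62.8 and 27.4 normalized counts in WT and 10.7, 8.90 and 15.9 in KO. Its libraries varied less than those of *Zscan4*, and each KO library was below each WT library. By genotype alone its log2 fold change was -1.80, with an SE of 0.53 and a DESeq2 adjusted p of 0.0135, and -1.66 with the block (SE 0.55, adjusted p 0.0223). It did not pass without WT replicate 2 (-1.15, adjusted p 0.475), KO replicate 1 (adjusted p 0.140) or KO replicate 2 (adjusted p 0.184).

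*Dux* encodes the double homeobox factor that starts the state. It was counted 15, 45 and 3 times in WT replicates 1 to 3 and 9, 11 and 0 times in KO, which is 8.58, 31.8 and 8.21 normalized counts in WT and 5.08, 6.52 and 0 in KO. In replicate 3 both libraries were at or under the floor of 3 counts. In DESeq2 its log2 fold change was -1.87 by genotype alone (SE 0.83, adjusted p 0.180) and -1.86 (SE 0.87, adjusted p 0.150) with the block, so *Dux* did not pass in either. It passed in edgeR with the block (-1.76, adjusted p 0.0189). Without WT replicate 2 its log2 fold change was -0.92 (DESeq2 adjusted p 0.888). Its symbol was not matched to a position in the annotation used here.

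*Gm4340*, on chromosome 10 from 104194042 to 104196522, had no count in any of the 6 libraries. Of its 50-base windows, 98.8% were also in *Gm20765* and 1.16% were in no other gene. An absence of counts therefore does not show an absence of its RNA. Among the other genes of the state listed below, 7 were at 0 in every library (*Tdpoz5*, *Gm4027*, *Gm6763*, *BC061212*, *Gm21304*, *Gm21312* and *Duxbl1*), and between 0% and 5.61% of their windows were their own.

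**Figure D2:**
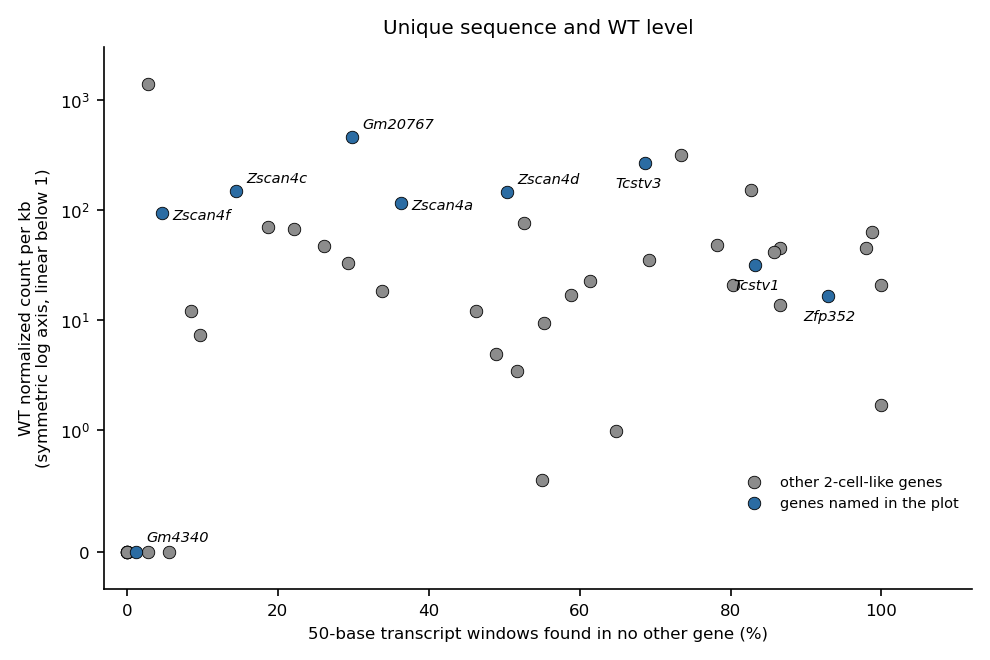
Share of 50-base transcript windows found in no other annotated gene (x axis, percent) against the mean WT normalized count per kb of exon (y axis, logarithmic above 1 and linear below) for 45 genes of the state, blue for the genes named in the plot and gray for other 2-cell-like genes. The 8 genes at 0 all lie at the left, with at most 5.61% of windows of their own, but *Zscan4f* (4.66%) and *Gm2022* (2.85%) were counted.

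Per kb of exon, the order of the mean WT levels was *Gm20767*, *Tcstv3*, *Zscan4c*, *Zscan4d*, *Zscan4a*, *Zscan4f*, *Tcstv1* and *Zfp352*. *Gm20767* had 453 ± 295 and *Tcstv3* 265 ± 175 normalized counts per kb (SD, n = 3). The *Zscan4* members had between 92.6 and 147, *Tcstv1* 31.5 ± 18.0 and *Zfp352* 16.6 ± 9.62. Neighbors in this order differed by less than the SD of the higher one. In KO the order was the same, from 69.5 ± 30.1 for *Gm20767* to 5.20 ± 1.59 for *Zfp352*.

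In all, 4 of the 9 members with an adjusted p-value were lower in KO by genotype alone (*Zfp352*, *Tcstv1*, *Tcstv3* and *Gm20767*) and 0 were higher. Among the 15309 genes tested, 4.78% were lower and 2.7% higher. With the replicate block 8 of 9 were lower and 0 higher, against 7.95% and 6.68% of the 14567 genes tested. Groups did not overlap for 5 members (*Zscan4d*, *Zfp352*, *Tcstv3*, *Gm20767* and *Dux*), as for 13.8% of all genes in the direction of lower KO. For *Dux* this rested on WT replicate 3 at the floor of 3 counts, so its groups cannot be called separate. All 9 were lower in KO within each of the 3 replicate numbers, where 26.1% of all genes were. The median log2 fold change was -2.43 over the 9 members and 0.01 over all genes tested.

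These counts depended on which libraries were kept. Without WT replicate 1, 8 of 9 passed by genotype alone (DESeq2), where 2.36% of all genes were lower in KO. Leaving out WT replicate 2 left 0 of 9, as did leaving out KO replicate 1 or replicate 2, with an unadjusted p under 0.05 for 2, 8 and 9 members in these fits and 2.54%, 2.24% and 2.34% of all genes lower. Of all genes, 2029 of 15474, 1882 of 15198 and 1870 of 15525 had an unadjusted p under 0.05 in these fits, in either direction. Without replicate 3 of WT or of KO, 2 and 3 members passed, beside 5.46% and 4.17% of all genes. The quasi-likelihood test of edgeR called 2 of 9 by genotype alone (*Tcstv3* and *Gm20767*) and 9 of 9 with the block, and called 4.15% and 13.4% of all genes lower in these 2 fits. In each of these fits the log2 fold changes of all 9 members were below 0.

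**Figure D3:**
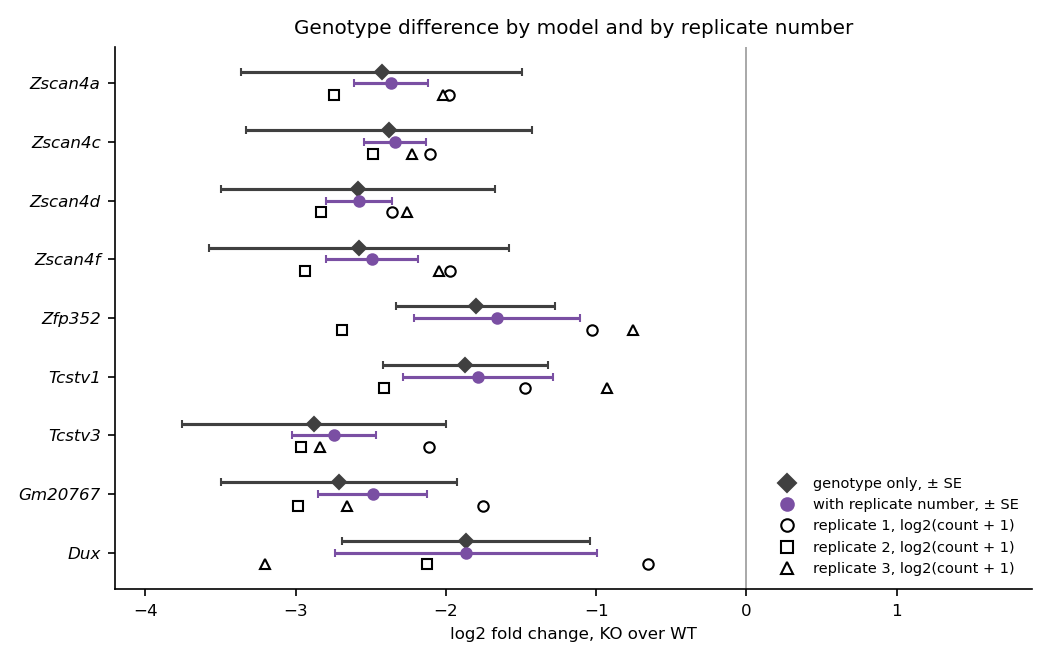
Log2 fold change (KO over WT, x axis) of 9 genes, as estimated by genotype alone (gray diamonds), with the replicate number in the model (purple circles), both ± SE, and as the difference of log2(normalized count + 1) within each replicate number (open symbols). All points lie below 0, and the purple error bars of the *Zscan4* genes, *Tcstv3* and *Gm20767* are shorter than the gray ones.

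The order of the libraries was similar for most members. WT replicate 2 was the highest WT library for 9 of 9 members, and WT replicate 1 was the lowest for 8 of 9, the exception being *Dux*. In KO, replicate 1 was the lowest library for 7 of 9. The SD of log2 levels within a genotype was between 1.29 and 1.41 for the *Zscan4* members, 1.23 for *Tcstv3*, 1.11 for *Gm20767*, 0.81 for *Tcstv1* and 0.60 for *Zfp352*. Over 6634 tested genes in the same range of mean level the median SD was 0.27, and 99.5% or more of these genes varied less than the *Zscan4* members.

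Deviations from the genotype means, on log2(normalized count + 1) over the 6 libraries, were correlated for the 36 pairs of members, with a median Pearson r of 0.916. Between *Zscan4* copies, which share reads, r was 0.992 or above. Over the 28 pairs without *Dux*, r was between 0.545 and 0.999. The 8 pairs with *Dux* had r between -0.103 and 0.141, at the low counts of this gene. Exchanging libraries within each genotype separately, without keeping replicate numbers together, allows 36 arrangements and no p below 0.0278. This smallest exact permutation p (two-sided) was reached by 11 of the 36 pairs, and 0 were under 0.05 after adjustment over the pairs (smallest adjusted p 0.0909).

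Pooled correlations are given for the 6 pairs in which the genotypes overlapped for both genes, those among *Zscan4a*, *Zscan4c*, *Zscan4f* and *Tcstv1*. For *Zscan4a* and *Tcstv1*, r was 0.968 over the 6 libraries. Over all orders of the libraries, genotypes mixed, its exact permutation p was 0.00694 (adjusted p 0.0139), while for r within genotypes (0.934) the exact permutation p was 0.0556 (adjusted p 0.1). For the same pair, Spearman's rho was 0.829 (exact permutation p 0.0583, adjusted p 0.0875). Without the 2 libraries farthest from the median of *Zscan4a*, r was 0.852. Over the 6 pairs, r was between 0.949 and 0.999 and, without the 2 farthest libraries, between 0.775 and 0.999. The libraries share genotype, replicate number and depth in these correlations.

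Of other genes known from the 2-cell-like state, 16 were lower in KO by genotype alone and 0 were higher (DESeq2), where 4.78% and 2.7% of all genes were. The list held 39 genes, 36 of them in the files and 25 with an adjusted p-value, and many of them are copies that share reads. The median log2 fold change of the 25 was -2.67, with a range from -4.30 to -0.75. With the block, 20 of 23 were lower, where 7.95% of all genes were. In 20 of the 25 WT replicate 2 was the highest library, and in 23 WT replicate 1 was the lowest of the WT libraries. Leaving out WT replicate 2 left 8 of 23 genes under the threshold and leaving out KO replicate 1 left 9 of 25, all lower, where 2.54% and 2.24% of all genes were lower.

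*Tdpoz3* and *Tdpoz4*, which encode BTB domain proteins, had the lowest estimates among the genes with an adjusted p-value, with log2 fold changes of -4.30 (SE 1.04, adjusted p 0.00121, DESeq2) and -4.23 (SE 1.09, adjusted p 0.00297). *Tdpoz3* had 8.58, 32.5 and 19.2 normalized counts in WT and 0, 2.37 and 0 in KO. *Tdpoz4* had between 8.01 and 36.7 in WT and 0, 2.37 and 0 in KO. Neither gene was counted in KO replicates 1 and 3, where the floor allows 1.69 and 7.93 normalized counts. The size of their fold changes is therefore uncertain, and they differed from the genes named next by less than the SE. *Usp17lc* and *Usp17ld*, which encode deubiquitinases, had log2 fold changes of -4.07 and -4.04 (SE 0.90 and 1.35, DESeq2 adjusted p 0.000291 and 0.0383). *Usp17lc* was counted 21, 49 and 8 times in WT and 1, 3 and 1 times in KO. *Usp17ld* was counted 3, 16 and 6 times in WT and 1, 1 and 0 times in KO, and had no adjusted p-value with the block and no value in edgeR. Both genes were at or under the floor of 3 counts in every KO library, so the size of their fold changes is uncertain.

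By the mean over the 6 libraries of both genotypes, the most abundant genes of this list were *Gm2022*, *Gm8300*, *Gm5039* and *Zscan5b*. The place of *Zscan5b* did not hold within a genotype. In WT *Gm2016* had a mean of 124 and *Zscan5b* 123, and in KO another gene had 33.9 and *Zscan5b* 27.9. For *Gm2022*, with 2.85% of 50-base and 33.3% of 100-base windows of its own, the level of the single copy is uncertain. *Gm2022* and *Gm8300* had 164, 986 and 643 and 132, 945 and 671 normalized counts in WT, and 38.9, 152 and 60.8 and 31.6, 120 and 60.8 in KO. Both, like *Gm5039* (log2 fold change -2.67, adjusted p 0.00610, DESeq2), were low in replicate 1 of each genotype. *Tmem92*, which encodes a membrane protein, had 33.7, 152 and 110 in WT and 7.90, 11.9 and 10.6 in KO, for -3.29 on the log2 scale (SE 0.51, adjusted p 1.16e-08). *Zscan5b*, a relative of the *Zscan4* genes that shares almost no 50-base window with another gene (98.7% its own), was lower in KO by -2.12 on the log2 scale (SE 0.40, adjusted p 8.95e-06). Its libraries were ordered differently, with 197, 123 and 49.3 in WT, highest in replicate 1, and 35.6, 29.7 and 18.5 in KO.

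**Figure D4:**
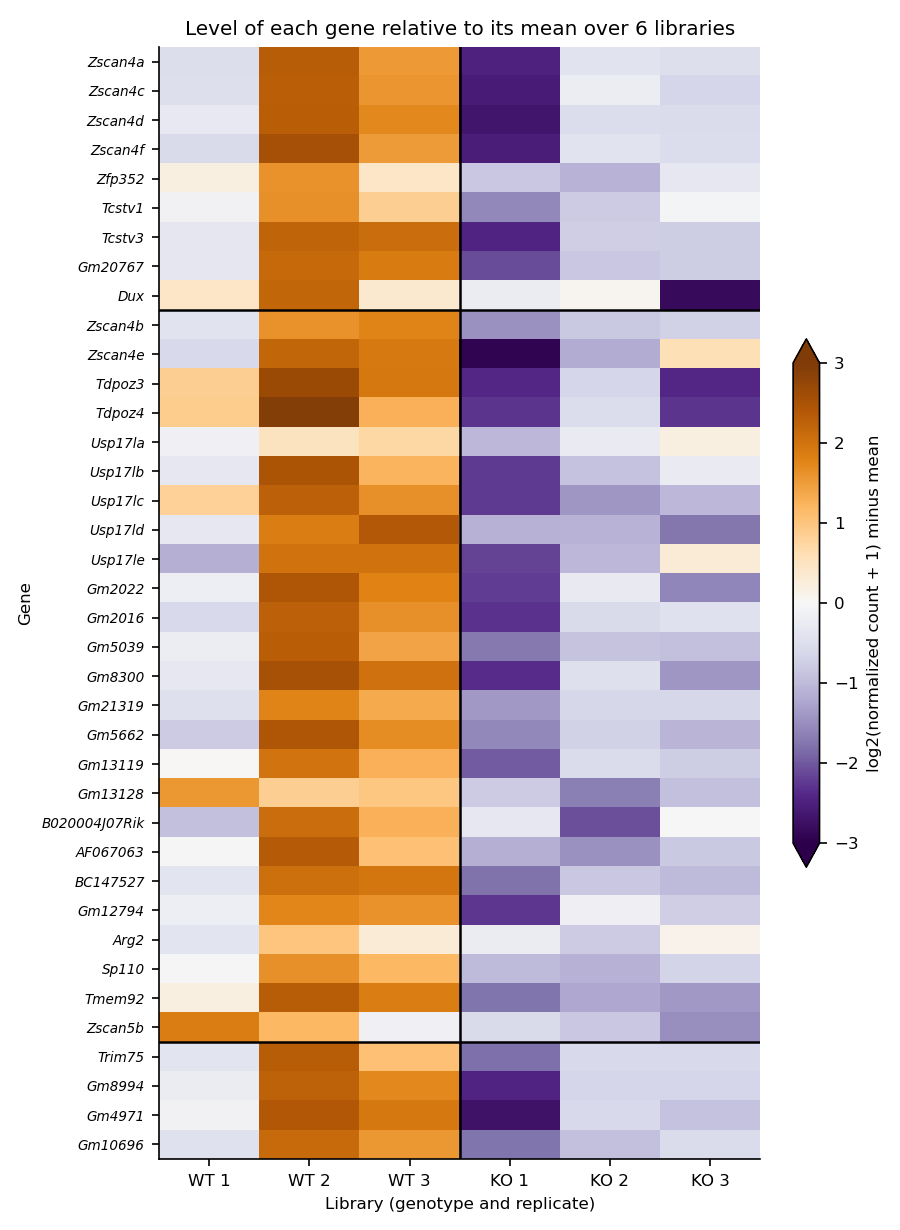
Heat map of log2(normalized count + 1) relative to each gene's own mean over 6 libraries for 38 genes (rows) in each library (columns), orange above and purple below the mean. The upper block holds 9 of the genes described first, the middle block 25 other 2-cell-like genes and the lower block 4 genes most like them that are in neither list. WT replicate 2 is the highest library for 33 of the 38 genes and KO replicate 1 the lowest for 29. These counts include the 4 genes picked for this pattern. In the middle block WT replicate 2 is the highest library for 20 of 25.

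To find the genes with the most similar pattern, each gene with a mean of at least 10 normalized counts and a range of at least 2 on the log2 scale was correlated over the 6 libraries with the mean standardized profile of the 9 members. Of 562 such genes, *Gm13119* came first (Pearson r 0.996). The first 10 also held *Trim75* (0.994), *Gm5039* (0.993), *Gm8994* (0.992), *Gm4971* (0.990), *Gm10696* (0.987), *Gm21319* (0.986), *Gm2016* (0.985) and *Gm8300* (0.985). Of the first 10, 5 are in the list of other 2-cell-like genes. *Gm8994*, which is not in that list, had 138, 768 and 531 normalized counts in WT and 28.8, 103 and 103 in KO. Over the 20 genes of the list among the 562, the median r was 0.968 and the lowest 0.507. These values are a description of 6 libraries of 2 genotypes and carry no test.

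Known regulators of the state were read against the shares over all genes, of which 4.78% were lower and 2.7% higher by genotype alone, and 7.95% and 6.68% with the block. In edgeR by genotype alone, 622 of 14995 were lower and 339 higher. An unadjusted p under 0.05, in either direction, was found for 2630 of 15309 genes in DESeq2 and 3163 of 14995 in edgeR. Of 6 known activators, 0 passed by genotype alone in DESeq2, where 1 had an unadjusted p under 0.05, and 0 in edgeR, where 0 had one. In DESeq2 the lowest log2 fold change was -0.28 (*Trp53*, adjusted p 0.243). *Dppa2* and *Dppa4*, which act upstream of *Dux*, had 3231 ± 327 and 2777 ± 371 normalized counts in WT and 2909 ± 161 and 2615 ± 121 in KO (SD, n = 3 each), with log2 fold changes of -0.15 and -0.09 (adjusted p 0.540 and 0.816). *Smarcad1*, a chromatin remodeler, had 0.06 (adjusted p 0.859). With the block, *Trp53*, which encodes p53, was lower in KO (-0.28, adjusted p 0.000182).

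Of 30 known repressors, 1 was higher in KO by genotype alone and 0 were lower (DESeq2, 2 at an unadjusted p under 0.05), and 0 passed in edgeR (3 at an unadjusted p under 0.05). Over all genes, 2.7% were higher and 4.78% lower in DESeq2, and 2630 of 15309 had an unadjusted p under 0.05. In edgeR 3163 of 14995 genes had one. *Atrx*, which encodes a remodeler that places histone H3.3 in heterochromatin, had 10419, 9231 and 12390 normalized counts in WT and 14793, 12130 and 15399 in KO, for 0.40 on the log2 scale (SE 0.13, DESeq2 adjusted p 0.0295). It did not pass when either WT replicate 1 or 2, or KO replicate 1 or 3, was left out. *Trim28*, *Kdm1a* and *Chaf1a*, a corepressor, a histone demethylase and a subunit of chromatin assembly factor 1, had log2 fold changes of -0.02, 0.12 and 0.14 (adjusted p 0.967, 0.669 and 0.609). With the block, 3 of the 30 were higher (*Atrx*, *Zfp42* and *E2f6*) and 1 was lower (*Uhrf1*), where 6.68% and 7.95% of all genes were. The 3 called only with the block had log2 fold changes of 0.15, 0.30 and -0.19, and their names, like that of *Trp53*, were chosen after their values were seen.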

How the data were processed

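The authors deposited raw read counts per gene symbol for 6 stranded, ribosome-depleted RNA-seq libraries, 3 WT and 3 *Patz1* KO, grouped by the titles of the samples. The submitters' processing notes name mm10, TopHat2 2.1.1, Bowtie2 2.3.1.0, featureCounts 1.6.2 and DESeq2. The annotation and the treatment of reads that fit several genes are not given in the sources used here. Counts were tested with the two-sided Wald test of DESeq2 1.42.0 in R 4.3.3 (the test and threshold of the study), with median-of-ratios size factors, genotype as the model, default independent filtering (0.1), no shrinkage and Benjamini-Hochberg adjustment. Normalized counts are counts divided by size factors. Alternatives were edgeR 4.0.16, TMM size factors, a minimum of 10 counts in 3 or more libraries, other filtering settings, the replicate block, and leaving out each library or both replicate 3 libraries. The code was tested on simulated counts.

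The labels do not say that replicate numbers pair the libraries, and the pairing was read from these same counts. Over 11524 genes, deviations from genotype means of same-numbered WT and KO libraries correlated at 0.469, 0.619 and 0.684. No libraries of a genotype agreed within sampling noise. Positions and transcripts came from GENCODE M21 (GRCm38, 9 of 10 members matched), and promoters from RefSeq (5 of 10 matched). Members, lists and tests were chosen with earlier results of these data known. *Trp53*, *Zfp42*, *E2f6* and *Uhrf1* were named outside the rules that follow, after their values were seen. Genes named by rule beyond the members were the list genes under the threshold (at most 6 a list, by size of change) and 6 fixed regulators. Further rules named the 4 other 2-cell-like genes with the highest mean over the 6 libraries, and the 10 genes most like the members. A gene that the last rule would name is not reported here.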

Additional observations from a re-analysis of the deposited data

How the results depend on the processing

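The count of the 9 members under the threshold moved from 4 to 2 with edgeR, 8 with the replicate block, 9 with edgeR and the block, and 2 without both replicate 3 libraries, and lay between 0 and 8 when 1 library was left out. Over all genes the count, in both directions, was 1146 of 15309, and 961 of 14995 with edgeR. It was 2131 of 14567 with the block, 3739 of 14995 with edgeR and the block, and 1332 of 15193 without both replicate 3 libraries. With 1 library left out it lay between 583 and 1341, of 15198 to 15871 genes. Those lower in KO were 732, 622, 1158, 2003 and 839 in the same order, and 340 to 833 with 1 library left out. Of the other 2-cell-like genes, 16 of 25 passed, 11 of 18 with the count filter and 9 of 24 without both replicate 3 libraries, all lower. In these last 2 fits 724 of 14429 and 839 of 15193 of all genes were lower. With 1 library left out, 8 to 23 passed. Of the activators, 0 passed, 1 with the block, 2 with edgeR and the block, 1 without both replicate 3 libraries and 0 to 1 with 1 library left out. Of the repressors, 1 passed, 0 with edgeR, 4 with the block, 5 with edgeR and the block and 0 to 1 with 1 library left out. The cause of these moves was not tested. TMM size factors, the count filter and the other filtering settings left the count of members at 4. The log2 fold changes of the 9 members were below 0 in each of 15 alternatives. The log2 ratio of the summed *Zscan4* copies was -2.47 and lay between -2.93 and -1.83 with 1 library left out. *Dux* had at most 3 counts in the replicate 3 libraries, and without both its adjusted p was 0.187. Single copies that share sequence have uncertain levels.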
